A study of Mus musculus with 48 samples.

Results

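AMPA and NMDA receptors are the ligand-gated channels that carry most fast excitatory transmission in the brain, and 10 of their subunit genes were followed here: *Gria1*, *Gria2*, *Gria3*, *Gria4*, *Grin1*, *Grin2a*, *Grin2b*, *Grin2c*, *Grin2d* and *Grin3a*. They were taken by gene symbol, each matched to a single Ensembl gene ID, from 52636 genes measured. AMPA receptors are assembled from the products of the *Gria* genes and open on binding glutamate. NMDA receptors need the obligatory NR1 subunit (*Grin1*) together with NR2 (*Grin2a* to *Grin2d*) or NR3 subunits, and those with NR2 subunits pass calcium when glutamate and a co-agonist are bound and depolarisation relieves a block by magnesium. In the amygdala both receptor types serve the plasticity that underlies fear learning and its extinction.

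The libraries came from punches of amygdala tissue of female mice aged 8 to 11 weeks, either WT or heterozygous for a targeted deletion in *Brd1* (Brd1+/-), a gene for a bromodomain protein of histone acetyltransferase complexes. The labels give the strain of all mice as C57BL/6NTac-Brd1, and the study's methods name the line as C57BL/6NTac-Brd1tm1.2Arte/AborgMmucd. The mice received vehicle, the tricyclic antidepressant imipramine (IMN, 10 mg/kg) or the serotonin reuptake inhibitor fluoxetine (FLX, 5 mg/kg), and 8 mice made up each of the 6 groups: WT vehicle, Brd1+/- vehicle, WT IMN, Brd1+/- IMN, WT FLX and Brd1+/- FLX. Per the study's methods, every mouse had also been injected on both test days, had gone through tail suspension, open field and forced swimming, and was sacrificed shortly after the swim. The study asked whether reduced *Brd1* expression alters brain gene expression and how the antidepressants bear on it. The Brd1+/- deletion was not confined to the amygdala, so that its effects there and elsewhere cannot be told apart.

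Levels were given as TPM, a share of each library's transcripts corrected for gene length, which keeps no sequencing depth. The depth of each library is therefore unknown beyond the minimum number of reads per sample that the study's methods state. *Brd1* ranged from 26.5 to 41.0 TPM in WT vehicle and from 21.8 to 30.6 in Brd1+/- vehicle libraries, from 31.9 to 41.0 and 16.6 to 29.5 under IMN, and from 24.9 to 39.3 and 18.0 to 27.2 under FLX. In 17 of the 24 Brd1+/- libraries it lay below every WT library of the same treatment. The cell type markers varied widely between libraries of all groups: *Slc17a7*, a marker of pallial excitatory neurons, ranged from 1.87 to 1346 TPM, the summed level of 9 markers of striatal projection neurons from 203 to 11933, and that of 6 hypothalamic markers from 0.36 to 213. The summed level of 6 choroid plexus markers ranged from 7.58 to 29586 TPM, and its score was highest, at 9.05 and 8.94, in Brd1+/- FLX replicate 8 and WT vehicle replicate 1. The labelled amygdala was represented by a list of 5 genes of its nuclei, with a summed level between 34.8 and 712 TPM. The score of the striatal list, the mean log2(TPM + 0.1) of its genes, showed its widest gap between 35 libraries and 13 libraries with higher values. These 13 were spread over all 6 groups, 1 to 3 in each. Some results are also given on the other 35 alone, and those given over all libraries only may rest on the 13. In bulk tissue of this kind, fewer cells of a type and less RNA per cell cannot be told apart.

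The members share little sequence, and the places where they do are shown because reads from them cannot be assigned to a single subunit. Of all 50-base words in the annotated transcripts, the length of the study's reads, 15 from *Gria2*, 11 from *Gria3* and 10 from *Gria4* recurred in another subunit gene, and none from *Gria1* or the *Grin* genes did. The longest coding stretch common to *Gria2* and *Gria3* covered 56 bases (GRCm38 chr3:80691333-80691388, minus strand, and chrX:41654856-41654911, plus strand), and that common to *Gria2* and *Gria4* covered 55 bases (chr3:80690425-80690479 and chr9:4427051-4427105, both on the minus strand). Both lie in the alternatively spliced flip and flop exons, which tune how fast AMPA receptors desensitise. They read, 5′ to 3′:
Gria2 and Gria3: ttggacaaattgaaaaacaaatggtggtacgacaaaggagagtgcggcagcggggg
Gria2 and Gria4: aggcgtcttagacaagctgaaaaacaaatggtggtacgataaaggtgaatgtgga

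More reads could be shared with genes outside the family. The processed pseudogene *Gm7328* shared 2076 words, 11.55% of those of *Grin2a*. The antisense gene *Grin1os* overlapped 1307 exonic bases of *Grin1* and shared 8.21% of its words, and the antisense gene *Gm45441* overlapped 643 exonic bases of *Grin2d* and shared 7.57%. The strand setting of the quantification is not given in the sources used here, so reads of *Grin1* and *Grin2d* and of their antisense partners cannot be told apart in the overlaps. *Grin2a* is uncertain to the extent that its reads were shared with the pseudogene.

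Promoters of 5 members, 250 bases before to 50 after the start site, were found in RefSeq (GRCm38.p6), and 3 of them are shown because *Gria4* and *Grin2d* varied together between libraries, and *Grin2c* against them over all 48, though less so on the 35 below the gap. Capitals mark the GC box GGGCGG, searched on both strands and held by 35.7% of 32851 promoters of that length. The *Gria4* window lies at chr9:4796185-4796484, the *Grin2d* window at chr7:45866632-45866931 and the *Grin2c* window at chr11:115267194-115267493, all on the minus strand. The *Gria4* and *Grin2c* windows span the 5′ ends of the gene models used here. The *Grin2d* window belongs to a start site inside its gene model, whose 5′ end is at 45878378.
Gria4: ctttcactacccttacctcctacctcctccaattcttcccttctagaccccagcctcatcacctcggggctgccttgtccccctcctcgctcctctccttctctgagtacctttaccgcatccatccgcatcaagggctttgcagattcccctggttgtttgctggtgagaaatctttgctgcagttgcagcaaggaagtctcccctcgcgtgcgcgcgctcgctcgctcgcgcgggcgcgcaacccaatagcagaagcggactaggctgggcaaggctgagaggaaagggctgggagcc
Grin2d: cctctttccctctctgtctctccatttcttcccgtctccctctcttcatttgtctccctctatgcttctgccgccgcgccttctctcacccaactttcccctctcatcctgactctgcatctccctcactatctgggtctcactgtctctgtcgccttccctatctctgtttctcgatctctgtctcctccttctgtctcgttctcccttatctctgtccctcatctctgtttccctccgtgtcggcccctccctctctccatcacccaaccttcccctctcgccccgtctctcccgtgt
Grin2c: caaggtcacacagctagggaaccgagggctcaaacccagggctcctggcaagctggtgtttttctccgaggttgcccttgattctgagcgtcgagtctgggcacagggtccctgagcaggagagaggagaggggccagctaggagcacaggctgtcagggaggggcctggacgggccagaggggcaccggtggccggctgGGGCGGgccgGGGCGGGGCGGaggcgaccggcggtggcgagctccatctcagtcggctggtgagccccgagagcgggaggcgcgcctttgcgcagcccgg
The *Grin2c* window held 3 GC boxes and was 70.0% G and C, and the *Gria4* and *Grin2d* windows held none, at 59.7% and 56.0%. Of the other windows, that of *Grin1* held 1 GC box and that of *Gria2* none. The motifs named next were searched as fixed strings, with no mismatch allowed. The string for the RE1 element was found in only 4 of 32851 promoters, so its absence from 5 windows was likely beforehand. The search therefore cannot tell whether *Gria2*, *Grin1* or the other members have RE1 sites. Neither the cAMP response element TGACGTCA, found in 1.79% of promoters, nor the RE1 element, a binding motif of a repressor of neuronal genes and found in 0.0122%, was in any of the 5 windows.

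All 10 subunits were present in every library. *Grin1* was the most abundant by mean, at 275 ± 52.3 TPM (SD, n = 48), and ranged from 163 to 369 with a median of 284. *Gria2*, the subunit that makes AMPA receptors impermeable to calcium, averaged 250 ± 50.9 TPM and ranged from 153 to 342 with a median of 259. *Gria1*, whose product enters synapses during potentiation, averaged 242 ± 62.7 TPM and ranged from 141 to 386 with a median of 225. These neighbouring levels overlapped over most of their range. *Gria3* followed at 108 ± 47.4 TPM, ranging from 31.5 to 212, and *Gria4*, the AMPA subunit with fast kinetics, at 66.2 ± 15.1 TPM, ranging from 37.5 to 101. *Grin2b*, the NR2 subunit with slow decay, averaged 49.5 ± 20.4 TPM and ranged from 15.3 to 101. The remaining 4 subunits lay close together, with *Grin3a*, which lowers calcium permeability, at 26.9 ± 12.6 TPM, *Grin2c* at 23.6 ± 7.00, *Grin2d* at 19.9 ± 12.2 and *Grin2a*, the NR2 subunit that rises as synapses mature, at 19.3 ± 8.32. Their ranges overlapped from 13.2 TPM, the lowest *Grin2c* value, to 37.0, the highest *Grin2a* value.

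**Figure D1:**
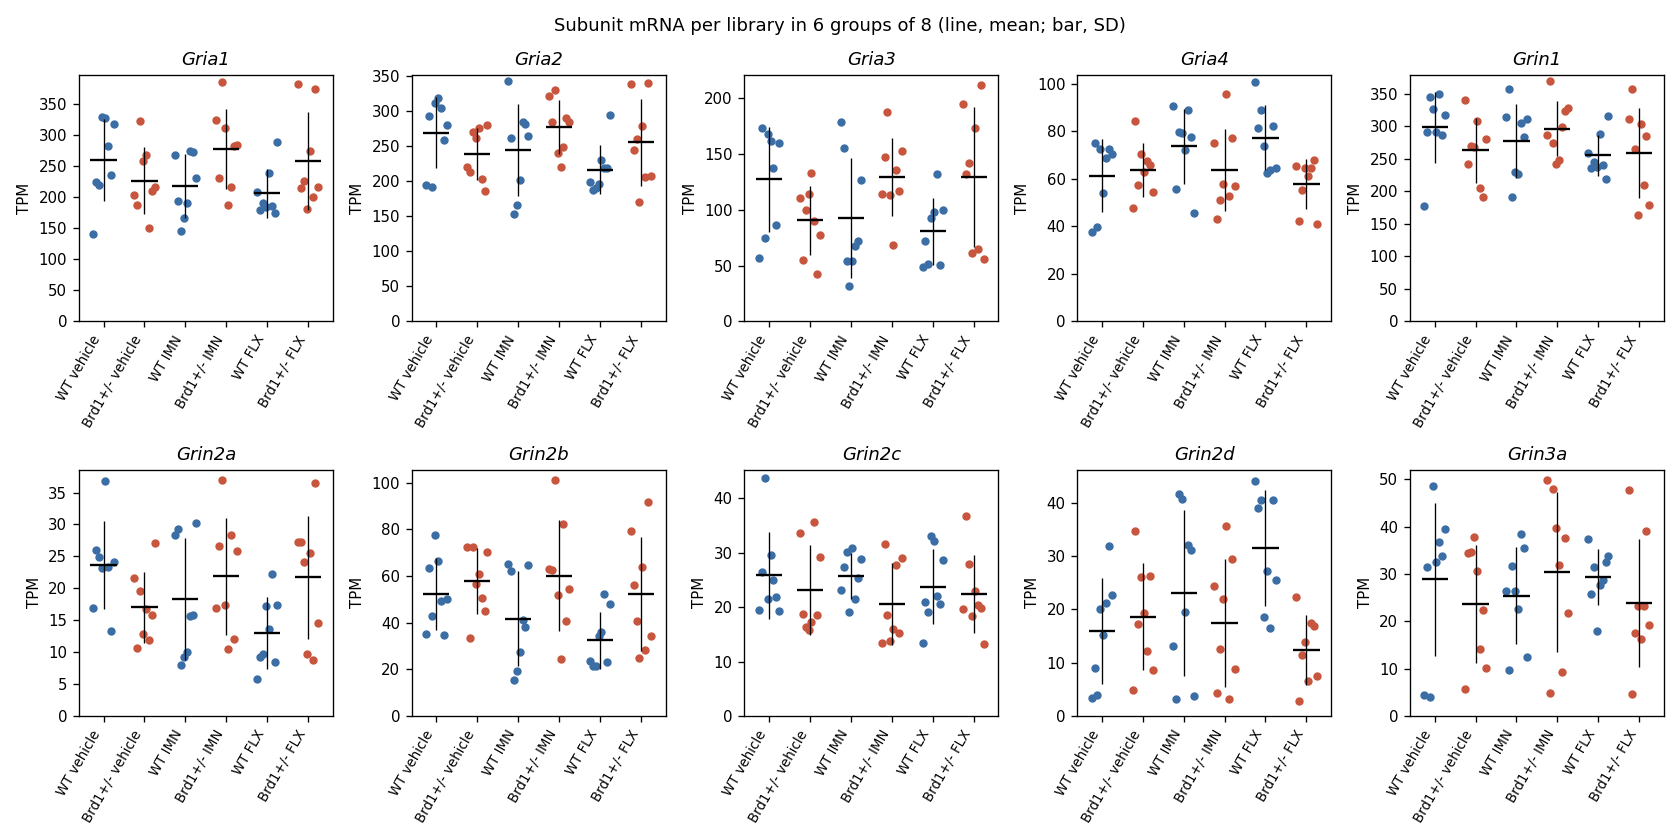
TPM of each subunit (vertical axes, starting at 0) in each of 48 libraries, by group, with blue points for WT and red points for Brd1+/- mice. Horizontal lines are group means and vertical bars are SDs of 8 libraries and, for *Grin2d* under FLX, lie at 31.5 TPM in WT and 12.4 in Brd1+/- mice.

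Within the *Gria* family, *Gria1* and *Gria2* each made up a similar part of the summed TPM, at 36.1 ± 3.45% and 37.7 ± 2.42% (n = 48), and the ratio of *Gria2* to *Gria1* stayed between 0.770 and 1.38. *Gria3* contributed 15.7 ± 4.49% and *Gria4* 10.5 ± 3.59%. The NR2 family was less even. *Grin2b* held 42.7 ± 10.9% of the summed NR2 mRNA and *Grin2d* 19.2 ± 13.7%, with extremes of 2.22% and 50.7% for *Grin2d*. *Grin2a* held 16.6 ± 4.93% and *Grin2c* 21.5 ± 6.37%. In WT FLX mice the *Grin2d* part averaged 32.6 ± 14.3% and the *Grin2b* part 31.5 ± 8.27%, against 12.4 ± 7.07% and 46.4 ± 7.60% in Brd1+/- FLX mice (SD, n = 8 each), without a test. The ratio of *Grin2b* to *Grin2a* averaged 2.27 ± 0.523 in WT vehicle and 3.49 ± 0.637 in Brd1+/- vehicle mice, and ranged from 1.72 to 3.34 and from 2.59 to 4.42, so that the groups overlapped. Under IMN it averaged 2.29 ± 0.285 in WT and 2.81 ± 0.563 in Brd1+/- mice. Under FLX the Brd1+/- mean was the lower, at 2.475 ± 0.472 against 2.63 ± 0.629 in WT mice. The ratio was not tested.

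**Figure D2:**
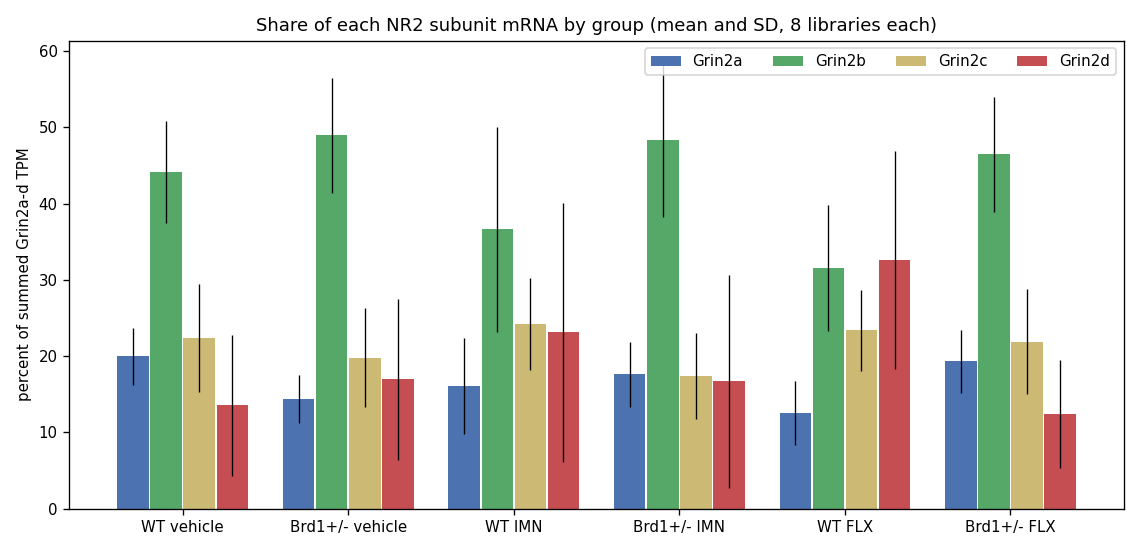
Percent of the summed *Grin2a* to *Grin2d* TPM (vertical axis) held by each NR2 subunit in the 6 groups; bars are means and lines SDs of 8 libraries. *Grin2b* holds the highest mean share in every group but WT FLX, where *Grin2d* averages 32.6% and *Grin2b* 31.5%.

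Differences between groups were tested with limma on log2(TPM + 0.1) over all genes that passed a filter on low values, which all 10 subunits passed in every comparison, and a gene was called at a Benjamini-Hochberg adjusted p under 0.05. Between Brd1+/- and WT vehicle mice none of the 10 subunits was called, where 0.708% of 24279 genes tested were. An unadjusted p under 0.05 was seen for 1 subunit and for 8.52% of all genes. The count of all genes called, 172, ranged from 80 without Brd1+/- vehicle replicate 4 to 349 without WT vehicle replicate 1. The subunit was *Grin2a*, which ranged from 13.3 to 36.8 TPM with a median of 23.7 in WT vehicle and from 10.7 to 27.1 with a median of 16.3 in Brd1+/- vehicle libraries. The groups overlapped, and the log2 difference of -0.48 ± 0.21 (SE) had an adjusted p of 0.535. The median log2 difference of the 10 subunits was -0.17, against 0.03 over all genes tested. Markers of oligodendrocytes differed beside it, with a median log2 difference of 1.51 over 6 genes, all positive and none called, and those of pallial excitatory neurons had a median of -1.35 over 6 genes, all negative and none called. Their part in the subunit values of vehicle mice was not tested.

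Between the genotypes under IMN, none of the subunits was called, where 0.017% of 23581 genes were. An unadjusted p under 0.05 was seen for 1 subunit, *Gria1*, and for 3.58% of all genes. *Gria1* ranged from 146 to 275 TPM with a median of 213 in WT IMN and from 188 to 386 with a median of 284 in Brd1+/- IMN libraries. The log2 difference was 0.35 ± 0.16 with a 95% interval of 0.0027 to 0.70 and an adjusted p of 1.00. The interval for *Grin2d*, the least precise member here, ran from -1.68 to 1.03 on the log2 scale. Differences within it, in either direction, were thus not excluded.

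Under FLX, 1 of the 10 subunits was called between the genotypes, where 1.54% of 23635 genes were, and 4 had an unadjusted p under 0.05, as did 16.6% of all genes. Without single libraries the count of all genes called, 364, ranged from 70 without WT FLX replicate 7 to 490 without Brd1+/- FLX replicate 6. The called gene was *Grin2d*, the NR2 subunit of slow, weakly magnesium-blocked receptors, and it was lower in Brd1+/- mice. In WT FLX libraries it ranged from 16.5 to 44.2 TPM with a median of 33.1, and in Brd1+/- FLX libraries from 2.92 to 22.3 with a median of 12.6. The groups overlapped between 16.5 and 22.3 TPM. The log2 difference was -1.48 ± 0.36 (SE) with a 95% interval of -2.24 to -0.73, or a fold of 0.358, and an adjusted p of 0.0469 by limma.

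The *Grin2d* call lay close to the threshold. Without any single one of 10 libraries it was lost, namely WT FLX replicates 1, 2, 3, 5, 7 and 8 and Brd1+/- FLX replicates 3, 5, 7 and 8, with adjusted p between 0.054 and 0.105 and log2 differences between -1.58 and -1.39. On the libraries below the gap in striatal score alone, the log2 difference was -1.16 with an adjusted p of 0.0668. Markers of hypothalamic excitatory neurons moved with it. Their summed level ranged from 4.53 to 213 TPM with a median of 101 in WT FLX and from 0.36 to 27.4 with a median of 12.7 in Brd1+/- FLX libraries. Of the 6 genes of this list 4 could be tested and 2, *Fezf1* and *Lhx5*, were called lower. Over the 48 libraries *Nr5a1* was at 0 in 34, *Lhx5* in 21, *Fezf1* and *Sim1* in 20 each and *Otp* in 16. The medians of these genes were at most 0.974 TPM, and *Slc17a6*, above 0 in every library, had one of 24.3. The score of this list therefore holds many values near 0 TPM. The other marker lists had smaller median log2 differences, with none called. Striatal markers had a median log2 difference of 0.72, 8 of 9 positive, pallial excitatory markers one of 1.12, 4 of 6 positive, and oligodendrocyte markers one of -0.56, 6 of 6 negative. Beyond the covariate values that follow, their part in the *Grin2d* value was not tested. With the hypothalamic score as a covariate, an alternative chosen after the data had been seen, the log2 difference of *Grin2d* was -0.57 with an adjusted p of 0.996. With the striatal, pallial and oligodendrocyte scores it was -1.29, -1.51 and -1.50, with adjusted p of 0.0300, 0.0491 and 0.0531.

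The 3 other subunits with an unadjusted p under 0.05 did not pass the adjustment. *Gria4* ranged from 62.4 to 101 TPM with a median of 77.6 in WT FLX and from 41.1 to 67.9 with a median of 62.8 in Brd1+/- FLX libraries, a log2 difference of -0.42 ± 0.13 with an adjusted p of 0.109. *Grin2a* ranged from 5.88 to 22.3 TPM with a median of 11.7 in WT FLX and from 8.84 to 36.4 with a median of 24.8 in Brd1+/- FLX libraries. Its log2 difference of 0.70 ± 0.32 had an adjusted p of 0.285 and the groups overlapped widely. *Grin2b* ranged from 21.3 to 52.2 TPM with a median of 29.1 in WT FLX and from 24.98 to 91.5 with a median of 48.3 in Brd1+/- FLX libraries, and its log2 difference of 0.63 ± 0.28 had an adjusted p of 0.275. Over the 10 subunits the median log2 difference was 0.10, against -0.06 over all genes, with 5 positive and 5 negative.

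**Figure D3:**
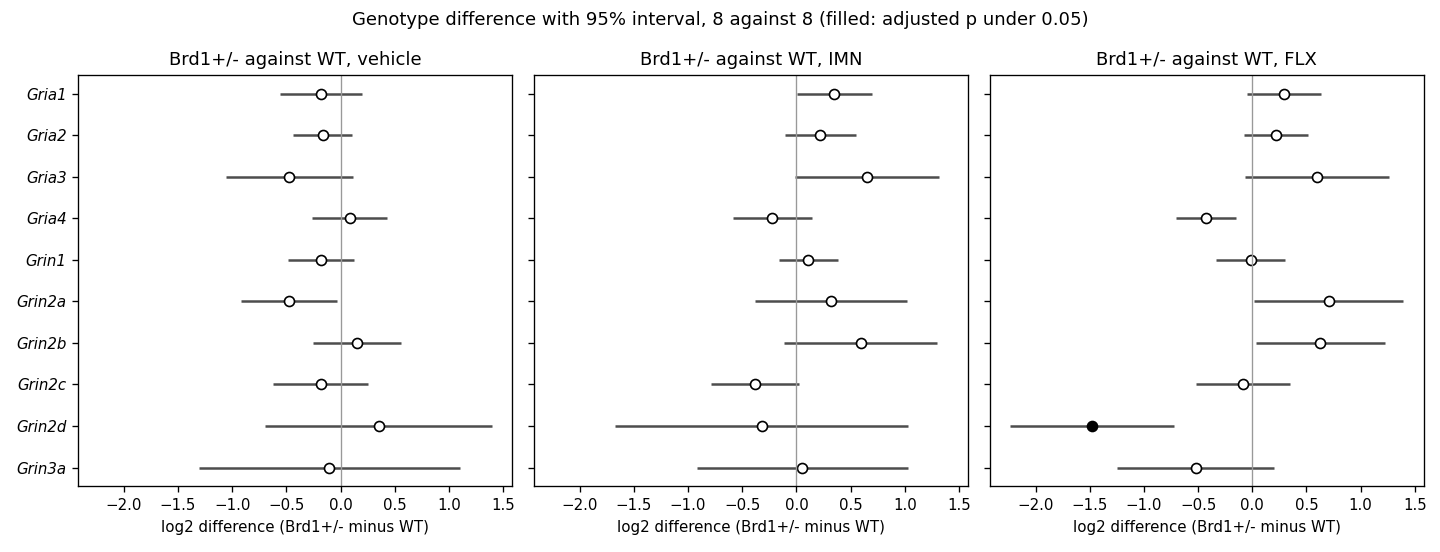
Log2 difference between Brd1+/- and WT mice (horizontal axis) for each subunit under vehicle, IMN and FLX, with lines for 95% intervals from limma on 8 against 8 libraries. Filled points mark an adjusted p under 0.05, which is reached by *Grin2d* under FLX alone, at -1.48.

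Over all treatments together, none of the subunits was called between the genotypes, where 0.0215% of 27944 genes were. An unadjusted p under 0.05 was seen for 1 subunit and for 8.55% of all genes. The subunit was *Grin2b*, higher by 0.46 ± 0.17 on the log2 scale in Brd1+/- mice with an adjusted p of 0.418. With the oligodendrocyte score as a covariate its log2 difference was 0.51 and its adjusted p 0.0217. *Grin2b* ranged from 34.9 to 77.6 TPM with a median of 49.7 in WT vehicle and from 33.5 to 72.6 with a median of 58.8 in Brd1+/- vehicle libraries. Under IMN it ranged from 15.3 to 65.2 with a median of 39.8 in WT and from 24.3 to 101 with a median of 58.4 in Brd1+/- libraries. The Brd1+/- median was the higher in all 3 treatments, and the groups overlapped in each.

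The other genes of glutamatergic synapses were taken from 4 lists. Under FLX, 3 of their 55 genes were called between the genotypes, all lower in Brd1+/- mice, where 1.54% of all genes were called and 325 of those 364 were lower. *Cacng2*, which encodes stargazin, the AMPA receptor chaperone, had a log2 difference of -0.77 ± 0.17 and an adjusted p of 0.0328. *Cacng7*, another of these AMPA receptor auxiliary subunits, had a log2 difference of -0.41 ± 0.07 and an adjusted p of 0.0149. These were 2 of 16 auxiliary subunit genes, whose median log2 difference was 0.18. *Grip2*, a scaffold that binds the tail of the products of *Gria2* and *Gria3*, had a log2 difference of -0.92 ± 0.21 and an adjusted p of 0.0364, and was the 1 called of 24 scaffold and kinase genes, with a median of 0.26. None of 8 kainate, delta and NR3B subunit genes or of 7 metabotropic receptors was called by limma, with medians of -0.31 and 0.12. Of these, 3 and 1 had an unadjusted p under 0.05, as did 16.6% of all genes. Without single libraries *Cacng7* kept an adjusted p of at most 0.0431, while *Cacng2* and *Grip2* were each lost without 8 of the 16, with adjusted p up to 0.0775 and 0.0822. For *Cacng2* these were WT FLX replicates 1, 2, 3, 5 and 7 and Brd1+/- FLX replicates 3, 5 and 7, and for *Grip2* the same WT FLX replicates and Brd1+/- FLX replicates 5, 7 and 8. With the hypothalamic score as a covariate the differences of *Cacng2*, *Cacng7* and *Grip2* were -0.68, -0.37 and -0.45, with adjusted p of 0.872, 0.720 and 0.996. Without it they were -0.77, -0.41 and -0.92. An adjusted p also depends on the other genes, and the count of all genes called here ranged from 0 to 450 over the alternatives. In the other 11 comparisons no gene of the 4 lists was called by limma, with between 1 and 20 of the 55 at an unadjusted p under 0.05. The 20 were for FLX against vehicle in WT mice, where 16.8% of all genes had such a p.

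FLX was compared with vehicle in WT mice, with the same WT FLX libraries as in the comparison of genotypes under FLX. None of the subunits was called, where 0.335% of 23557 genes were, but 6 of the 10 had an unadjusted p under 0.05, while 16.8% of all genes did. The count of all genes called, 79, rested on single libraries and ranged from 1 without WT FLX replicate 7 to 956 without WT vehicle replicate 1. *Grin2a* ranged from 13.3 to 36.8 TPM under vehicle and from 5.88 to 22.3 under FLX, a log2 difference of -0.92 ± 0.26 with an adjusted p of 0.0966. *Grin2b* ranged from 34.9 to 77.6 and from 21.3 to 52.2, a difference of -0.72 ± 0.22 with an adjusted p of 0.125. *Grin2d* ranged from 3.34 to 31.8 and from 16.5 to 44.2, a difference of 1.25 ± 0.43 with an adjusted p of 0.159. The ranges of all 3 overlapped between the treatments. In WT vehicle replicates 1 and 3, both above the gap in striatal score, *Grin2d* was at 3.34 and 3.94 TPM. Its difference without the libraries above the gap is not given here. *Gria2* and *Gria3* had log2 differences of -0.30 and -0.64 and *Gria4* of 0.36, with adjusted p between 0.230 and 0.271. On the libraries below the gap in striatal score alone, *Gria2* had a log2 difference of -0.44 and an adjusted p of 0.0411. Without WT vehicle replicate 1 *Grin1* passed at -0.31 with an adjusted p of 0.0450, and without WT vehicle replicate 7 *Grin2a* passed at -1.03 with an adjusted p of 0.0468.

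Marker lists moved beside these values in WT mice. Oligodendrocyte markers had a median log2 difference of 1.21 between FLX and vehicle, 6 of 6 positive, pallial excitatory markers one of -2.09, 6 of 6 negative, and hypothalamic markers one of 2.16, 5 of 5 tested positive, with none called. Their summed levels overlapped between the groups, for the oligodendrocyte list from 642 to 10381 TPM under vehicle and from 1839 to 7968 under FLX. The 8 immediate-early genes had a median of -1.03 over 7 tested, all negative, and 2 of them, *Egr1* and *Npas4*, which report recent neuronal activity, were called lower under FLX, at -1.15 and -0.95. With the oligodendrocyte score as a covariate the difference of *Grin1* was 0.01, with an adjusted p of 0.972. The vehicle mice and the drug mice carried sample codes from separate ranges, so that handling that follows the codes and treatment cannot be told apart. In the upper range of the drug mice's codes, every WT code lay above every Brd1+/- code. Handling that follows those codes and genotype cannot be told apart there either.

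In Brd1+/- mice, none of the subunits was called for FLX against vehicle, where 0.731% of 24336 genes were. None had an unadjusted p under 0.05, while 6.94% of all genes did. None was called for IMN against vehicle in Brd1+/- mice either, where 0.776% of 24225 genes were. An unadjusted p under 0.05 was seen there for 1 subunit, *Gria3*, and for 9.3% of all genes. *Gria3* ranged from 42.8 to 133.3 TPM with a median of 94.9 under vehicle and from 68.3 to 188 with a median of 126.1 under IMN, a log2 difference of 0.55 ± 0.23 with an adjusted p of 0.456. In WT mice IMN against vehicle gave 0 calls among the subunits and 0% of 23644 genes by limma, with 0 subunits and 1084 genes at an unadjusted p under 0.05. FLX against IMN also gave 0 calls among the subunits, and 0% of 23501 genes in WT and 0% of 23724 in Brd1+/- mice, with 0 subunits and 1123 and 709 genes at an unadjusted p under 0.05.

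Whether the drug difference depended on genotype was tested as an interaction. For FLX none of the subunits was called, where 1.71% of 26657 genes were, and 4 had an unadjusted p under 0.05, as did 16.8% of all genes. The interaction was -1.83 ± 0.63 on the log2 scale for *Grin2d*, with an adjusted p of 0.129, and 1.18 ± 0.40 for *Grin2a*, with an adjusted p of 0.121. *Gria3* had 1.07 ± 0.43 and *Gria4* -0.51 ± 0.21, with adjusted p of 0.200 and 0.214. With the striatal score as a covariate, the *Grin2d* interaction was -1.68 with an adjusted p of 0.0166, and with the hypothalamic score it was -0.47 with an adjusted p of 0.704. Over the other alternatives its adjusted p lay between 0.0817 and 0.240. In this interaction the hypothalamic markers had a median of -3.70, 5 of 5 tested negative, the oligodendrocyte markers one of -2.07, 6 of 6 negative, and the pallial excitatory markers one of 2.47, 6 of 6 positive, with none called. Of the 8 immediate-early genes all were positive, with a median of 1.56, and 3 were called higher, *Egr2*, *Npas4* and *Nr4a1*. The part of the last list in the subunits' values was not tested. For IMN none was called, where 0.536% of 26673 genes were, and 2 had an unadjusted p under 0.05, as did 9.24% of all genes. These 2 were *Gria3* at 1.12 ± 0.43 and *Gria1* at 0.53 ± 0.25, with adjusted p of 0.416 and 0.517. These interactions share their vehicle libraries.

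The larger variation lay between libraries of the same group. *Grin2d* differed 15.2-fold and *Grin3a* 12.3-fold between the lowest and the highest of 48 libraries, and their SDs within groups, 1.11 and 1.01 on the log2 scale, exceeded those of 88.1% and 86.2% of 19222 genes with a mean of at least 1 TPM. *Gria3*, *Grin2a* and *Grin2b* had SDs between 0.60 and 0.65, against a median of 0.38 over those genes. *Grin1* and *Gria2* were the steadiest members, with SDs of 0.29 and a range of 2.26-fold and 2.24-fold. Group membership took up between 3.5% of the variance in *Grin3a* and 24.9% in *Grin2b*. With 6 groups of 8 libraries, labels unrelated to the values would also take up a part, and these shares were not tested.

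With the group means taken out, 6 subunits varied together over the 48 libraries: *Gria1*, *Gria2*, *Gria3*, *Grin1*, *Grin2a* and *Grin2b*. Their 15 pairs all had a positive Pearson's r, also under median-ratio scaling. *Grin2a* and *Grin2b*, both genes of NR2 subunits, had r = 0.901 and Spearman's rho = 0.901. Their r was 0.775 in the 16 vehicle and 0.925 in the 32 drug libraries, and 0.892 without the 2 libraries farthest from the median. The permutation p, from 100000 resamples within groups, was 1e-05, the smallest they can give, and 3e-05 after adjustment over 45 pairs. *Gria1* and *Gria2* had r = 0.828, *Gria3* and *Grin2b* 0.858, and *Gria2* and *Grin2b* 0.799, each with that same p. The lowest of the 15 pairs was *Gria1* with *Grin2a*, at 0.502. On the 35 libraries below the gap in striatal score these 4 named pairs had r = 0.906, 0.872, 0.861 and 0.877, and *Gria1* with *Grin2a* 0.732.

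*Gria4*, *Grin2d* and *Grin3a* formed a second set, in which the 13 libraries with high striatal scores weighed more. *Grin2d* and *Grin3a* had r = 0.848, rho = 0.761 and a permutation p of 1e-05, with r = 0.914 in vehicle and 0.830 in drug libraries, but r = 0.315 on the 35 libraries below the gap. *Gria4* and *Grin2d* had r = 0.817, rho = 0.758 and the same p, and 0.613 on the 35. *Gria4* and *Grin3a* had r = 0.736 and 0.239 on the 35. *Grin2d* varied against *Grin2a*, with r = -0.573 over all and -0.586 on the 35 libraries, and against *Grin2b*, with -0.456 and -0.544. *Grin2c*, an NR2 subunit best known from the cerebellum and from astrocytes, varied against *Grin3a* and *Grin2d*, with r = -0.635 and -0.582, but with -0.215 and -0.218 on the 35. Its r with *Gria4* was -0.480 over all and -0.295 on the 35. Of the 45 pairs 28 passed at an adjusted permutation p under 0.05, 22 positive and 6 negative.

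**Figure D4:**
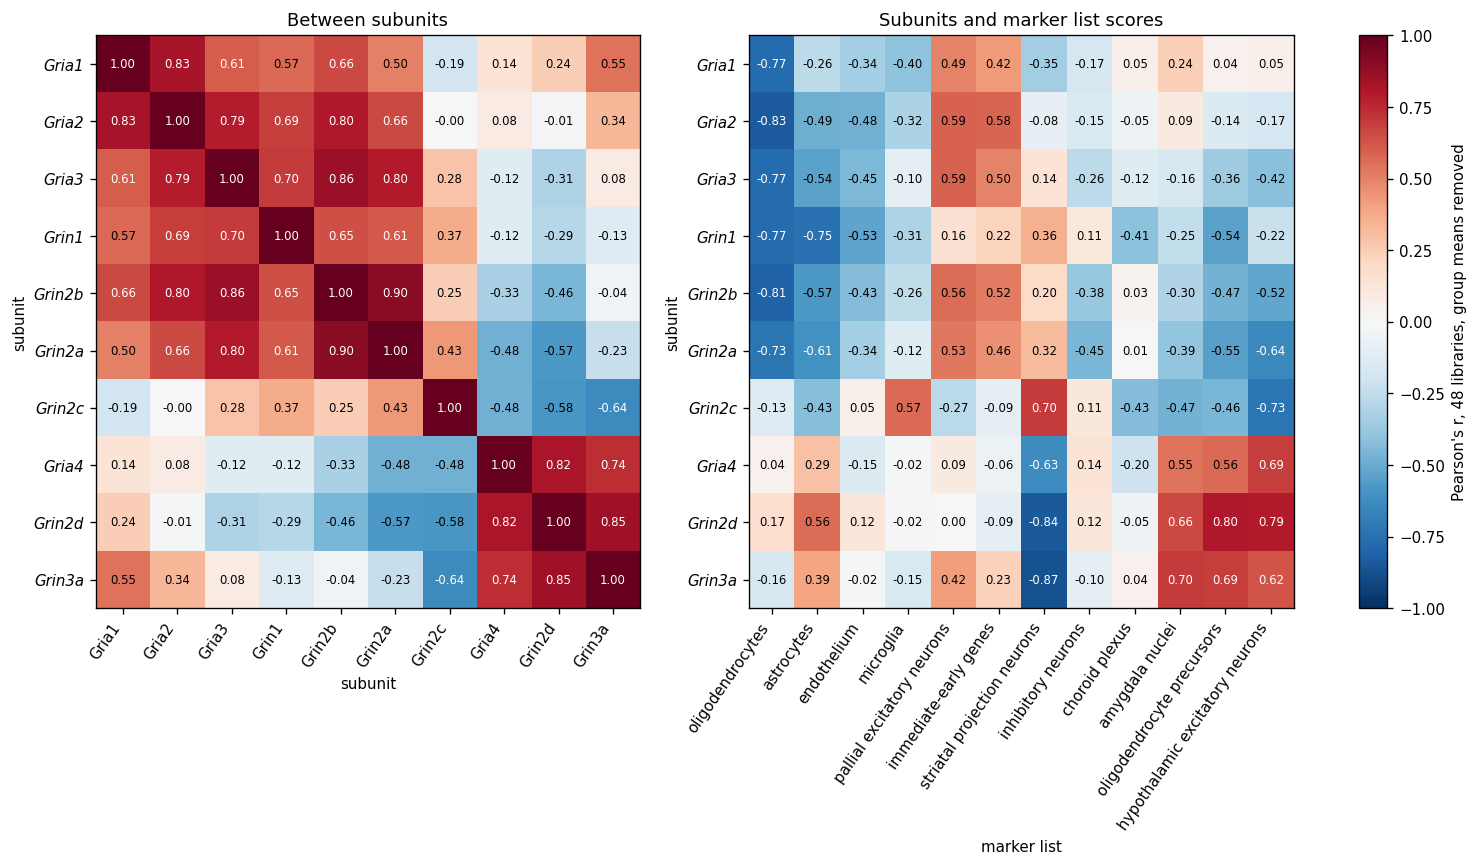
Pearson's r over 48 libraries, with group means removed, between subunits (left) and between each subunit and the score of each marker list (right), on a colour scale from -1 (blue) to 1 (red). *Gria1*, *Gria2*, *Gria3*, *Grin1*, *Grin2a* and *Grin2b* form a red block and have r from -0.83 to -0.73 with the oligodendrocyte score.

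The subunits were set beside the scores of 12 lists of cell type, region and activity markers, and 61 of these 120 relations passed at an adjusted permutation p under 0.05, 25 positive and 36 negative. All of these values share the library and its total, so a rise of one set of transcripts lowers the share of the others. The 6 co-varying subunits fell as the oligodendrocyte score rose. *Gria2* had r = -0.834, rho = -0.826 and a permutation p of 1e-05, with r = -0.742 in vehicle, -0.875 in drug libraries and -0.805 without the 2 farthest. *Grin2b* had r = -0.805 and *Gria1* -0.772, and on the 35 libraries below the gap the 3 values were -0.869, -0.828 and -0.836. The summed level of the 6 oligodendrocyte markers ranged from 642 to 16268 TPM over the libraries. Other scores went with the 6 subunits too. With the pallial excitatory score all but *Grin1* (0.156) passed, with r from 0.494 for *Gria1* to 0.590 for *Gria2*. On the 35 libraries *Grin2a* had 0.872 with it and -0.762 with the oligodendrocyte score. For the astrocyte score all but *Gria1* (-0.264) passed, from -0.491 for *Gria2* to -0.750 for *Grin1*. For the immediate-early score all but *Grin1* (0.224) passed, from 0.422 for *Gria1* to 0.583 for *Gria2*.

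*Grin2d* rose with the hypothalamic score, with r = 0.794, rho = 0.846 and a permutation p of 1e-05, with r = 0.864 in vehicle, 0.763 in drug libraries, 0.802 without the 2 farthest and 0.792 on the 35 below the gap. The r of *Grin2d* with the oligodendrocyte precursor score was 0.803 over all, with the same p, and 0.542 on the 35. With the amygdala nuclei and astrocyte scores it was 0.659 and 0.558 over all, and 0.206 and 0.172 on the 35. On the 35 it was -0.632 with the pallial excitatory and 0.543 with the inhibitory score, against 0.003 and 0.124 over all. *Gria4* rose with the hypothalamic score, with r = 0.693 over all and 0.604 on the 35. *Grin2c* went the other way, at -0.732 and -0.582, and rose with the microglial score, at 0.570 and 0.698. Its r with the astrocyte score was -0.429 over all and -0.017 on the 35. With the striatal score no single r describes the subunits. *Grin2d* ranged from 7.62 to 44.2 TPM with a median of 22.7 in the 35 libraries below the gap and from 2.92 to 18.6 with a median of 4.37 in the 13 above, and r was -0.202 within the 35 and -0.804 within the 13. *Grin3a* ranged from 17.4 to 49.7 TPM with a median of 32.6 below and from 4.03 to 21.8 with a median of 9.66 above, with r = -0.347 and -0.884. In both genes the libraries above the gap lay mostly under those below it. *Grin2c* was higher above the gap, with medians of 29.1 and 19.9 TPM, and *Gria1* and *Gria2* had medians of 217 and 249 TPM above it and 239 and 260 below.

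**Figure D5:**
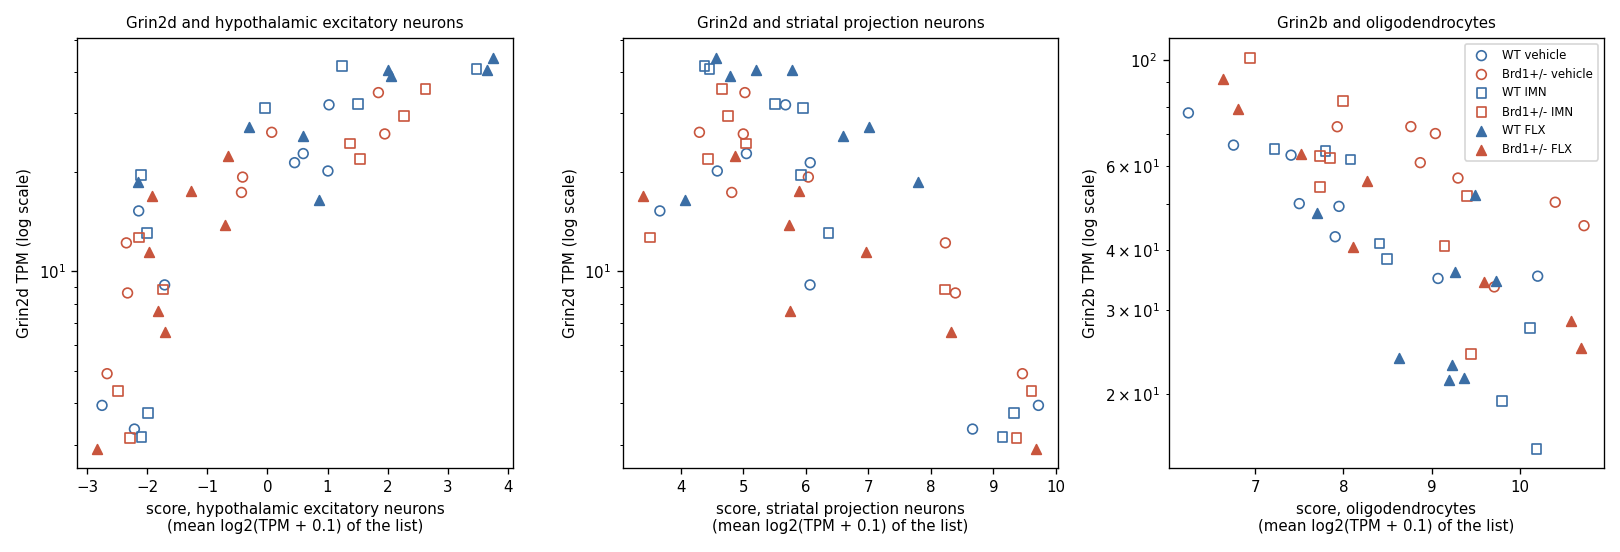
TPM of *Grin2d* (log axis) against the hypothalamic and the striatal score, and of *Grin2b* (log axis) against the oligodendrocyte score, per library, where a score is the mean log2(TPM + 0.1) of its list; colours mark genotype and shapes treatment. *Grin2d* rises with the first score (r = 0.794), *Grin2b* falls with the third (r = -0.805), and the 13 libraries of highest striatal score hold *Grin2d* at 2.92 to 18.6 TPM.

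The genes whose variation was most like that of a subunit, among 19222 with a mean of at least 1 TPM over the 48 libraries, were described by r with no test. These r values were not computed again on the 35 libraries below the gap in striatal score. There the r of *Grin2d* with *Grin3a* was 0.315, against 0.848 over all. For *Grin2d* they were *Arl4c* (0.972), *Camk2n2* (0.964) and *Ebf4* (0.959), and for *Grin3a* *Dner* (0.972), *Tubb2a* (0.963) and *Bri3bp* (0.963). *Grin2a* was followed most closely by *Gm7328* (0.962), the pseudogene that shares its sequence, and then by *Wasf1* (0.936), an actin regulator, and *Mmd* (0.932). *Wasf1* also led for *Grin2b* (0.943), before *Hrk* (0.934). For *Gria1* the first was *Gabra2* (0.897), a GABA-A receptor subunit, with the AMPA receptor auxiliary subunit *Cacng8* (0.893) and *Lrrc73* (0.891). *Gria2* had *Trio* (0.899), *Pak6* (0.877) and *Nova2* (0.870), *Gria3* had *Iqsec2* (0.888), *Med15* (0.883) and *Neurl1a* (0.881), and *Gria4* had *Samd10* (0.903), *Aars* (0.896) and *Sv2a* (0.895). *Grin1* had *Pld3* (0.880), *Trim46* (0.877) and *Wscd2* (0.874), and *Grin2c* had *Trnp1* (0.865), *Selenow* (0.854) and *Sema3e* (0.832).

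The genes that share sequence with a member followed it to different degrees. *Grin1os*, at a mean of 23.4 TPM, had r = 0.867 with *Grin1*. *Gm7328*, at 7.95 TPM, had a log2 difference of 0.79 between the genotypes under FLX beside 0.70 for *Grin2a*, with an adjusted p of 0.225. *Gm45441*, at 13.99 TPM against 19.9 for *Grin2d*, had r = 0.145 with it. Under FLX its log2 difference between the genotypes was 0.55 with an adjusted p of 0.557, where that of *Grin2d* was -1.48.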

How the data were processed

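The authors aligned 50-base single-end reads of amygdala RNA libraries (TruSeq, HiSeq) to GRCm38 with HISAT2 2.1.0, quantified genes with StringTie 1.3.4, and deposited TPM, 1 column for each of 48 libraries. FastQC and Trimmomatic are named in the submitters' processing notes. TPM divides reads by gene length and scales each library to the same sum, so depth, counting intervals and detection limits cannot be recovered. The series' design text names other brain regions and another sequencer, and the sample labels, which say amygdala, were followed for groups. Each library carries a sample code of its own in the labels. The authors' own test was edgeR on counts of pairs of groups; TPM is not a count, so limma 3.58.1 (R 4.3.3; lmFit, eBayes with trend) was run on log2(TPM + 0.1) over genes with at least 0.1 TPM in at least 8 samples of the fit, two-sided, on the compared groups alone, with Benjamini-Hochberg adjustment over all genes tested. Differences are on the log2(TPM + 0.1) scale, which understates low genes. Medians of lists are over their tested genes.

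The subunits, lists and tests were chosen with earlier results of these data known. Named genes were the subunits, *Brd1*, up to 4 called genes per direction of the 4 synaptic lists in each comparison, and for each subunit the 3 genes with the highest r, of which 1 is not reported here. *Fezf1*, *Lhx5*, *Otp*, *Sim1*, *Egr1*, *Egr2*, *Npas4*, *Nr4a1*, *Nr5a1*, *Slc17a6*, *Slc17a7* and the genes sharing sequence were named after their values were seen. Correlations used values with group means removed and permutations within groups (Python 3.11, numpy; 100000 resamples). Gene models came from GENCODE M21 on GRCm38, where 99.7% of gene IDs were found. Code was tested on simulated data. The alternatives were other pseudocounts (0.01 and 1), filters, scalings, a fit without trend, 1 fit of all 48 libraries, a replicate block, a term for the range of sample codes, marker scores as covariates, and leaving out each library in turn in 6 comparisons. The pallial and hypothalamic covariates and the restriction to 35 libraries below the gap in striatal score were added after the data had been seen.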

Additional observations from a re-analysis of the deposited data

Results flagged for a closer look

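Among the 60 sets of 8 libraries (10 subunits in 6 groups), 3 held a library far from its neighbours by Dixon's test, where chance gives about 1 in 20 sets. *Gria2* was at 294 TPM in WT FLX replicate 8, against 230 in the next highest library. *Grin1* was at 177 TPM in WT vehicle replicate 1, against 287 in the next lowest. It is also 1 of 2 libraries above the widest gap in choroid plexus score, at 8.94, with a striatal score of 8.67 and an oligodendrocyte score of 10.2. The part of these in its *Grin1* value was not tested. It is the library without which *Grin1* passed the test for FLX against vehicle in WT mice. *Grin2c* was at 43.7 TPM in WT vehicle replicate 3, against 29.6 in the next highest.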

How the results depend on the processing

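The *Grin2d* difference between Brd1+/- and WT mice under FLX was negative in all 16 alternatives run on it and in all 16 leave-one-out fits, but its call depended on them, and the cause was not tested. It passed in 5 alternatives (adjusted p from 0.030 to 0.0491: pseudocount 1, a TPM of at least 1, quantile normalization, and the striatal and pallial scores as covariates), and in the other 11 the number of subunits called was 0 in place of 1. In these the log2 difference and adjusted p were -1.49 and 0.0512 with a pseudocount of 0.01, -1.48 and 0.0679 with no filter, -1.41 and 0.0512 with median-ratio scaling, -1.45 and 0.0501 on nuclear protein-coding genes, -1.48 and 0.0671 without trend, -1.48 and 0.178 in 1 fit of all 48 libraries, -1.48 and 0.0839 with a term for the code range, -1.50 and 0.0531 with the oligodendrocyte score, -0.57 and 0.996 with the hypothalamic score, and -1.16 and 0.0668 below the gap in striatal score. The term for the code range does not separate codes from genotype in the upper range of the drug mice, where every WT code lay above every Brd1+/- code. Leave-one-out fits called 0 to 1 subunit under FLX, 6 of 16 with the call, and 0 to 1 for FLX against vehicle in WT mice.

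The replicate numbers did not pair the samples: libraries of the same number had deviations correlated between -0.292 and 0.519, median -0.0243. With the replicate block *Grin2d* had -1.48 and an adjusted p of 0.106, with 0 subunits called under FLX.

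Alternatives that added a call gave 1 subunit in place of 0: *Gria2* at -0.44 for FLX against vehicle in WT mice below the gap, *Grin2d* at -1.68 in the FLX interaction with the striatal score, and *Grin2b* at 0.51 over all treatments with the oligodendrocyte score. Reversed were *Grin1* for FLX against vehicle in WT mice with the oligodendrocyte score (0.012, adjusted p 0.972) and *Grin2a* between the genotypes under FLX with the hypothalamic score (-0.075, adjusted p 0.998). Of 120 subunit and comparison pairs, 99 were called in no setting and were not under an unadjusted p of 0.05 in the main fit. Of these, 52 changed sign under an alternative. Rescaling to nuclear protein-coding genes, which held 64.4% to 76.2% of the TPM, raised mean levels past 1 SD to 338 TPM for *Gria1*, 350.7 for *Gria2*, 92.5 for *Gria4*, 387 for *Grin1* and 33.5 for *Grin2c*. Under pseudocount 1 and median-ratio scaling, 61 and 66 of 120 list relations and 28 and 33 of 45 pairs passed. Over all genes, the number called under FLX between the genotypes ranged from 0 to 450 over the alternatives, against 364. Of 16 alternatives, 9 kept the calls of *Cacng2* and of *Grip2* and 11 that of *Cacng7*. Quantile normalization shifted the median of all genes by 0.12 in the FLX interaction, where it was -0.10. The exact depth of each library is unknown.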
